A study of Rattus norvegicus with 16 samples.

Results

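Expression of 8 fat cell marker genes was described in both kidneys of 8 rats: Ucp1, Fabp4, Cfd, Sncg, Lpl, Lipe, Adipoq and Lep. Members were the probe sets (groups of oligonucleotides for a transcript) whose only gene symbol in the array platform's annotation is one of these names. Of the 8 genes, 7 were found, with 13 probe sets, out of 4736 genes named on the array; Adipoq was not named there and was not analysed here. All 13 probe sets passed the filter on dim probe sets, among 5244 that were tested, and the tested probe sets stood for 3193 named genes. Where 1 value per gene was needed, the probe set with the highest mean signal was used. The genes were selected on their measured right minus left changes in the ACTH and DEX rats and on rising and falling together in these kidneys, so their responses to the hormones are given as descriptions. Where a count of members past a threshold of the fit over all probe sets is printed for those responses, it stands beside the share of all probe sets and nothing is read from it.

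RNA from each kidney was hybridised to 1 array, 16 in all. The left kidney of every rat was its untreated control. The right kidney received ACTH (adrenocorticotropic hormone, the pituitary hormone that drives steroid release from the adrenal cortex) in rats 1 and 5, an agent labelled DEX in rats 3 and 7, and saline in rats 2, 4, 6 and 8. The sample titles give 4 saline rats, whereas the design text gives 2 rats for each treatment, and the titles were followed. The labels spell out neither DEX nor the dose, the route, the duration, or the age, sex or strain of the animals. Each rat is a separate animal, so errors rest on the spread between rats. For right minus left changes it is the spread of those changes, and among left kidneys the spread of levels. The fits over all probe sets also draw on the spread of the other probe sets.

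White fat cells store triglyceride in a single large droplet and release it as fatty acids when hormones call for fuel, and they secrete proteins such as leptin and adiponectin. Brown fat cells burn fatty acids to make heat: uncoupling protein 1, made from Ucp1, lets protons leak back across the inner mitochondrial membrane without ATP synthesis, and noradrenaline acting on beta-adrenergic receptors switches the gene on. Fat lies around the kidney and in its hilum, and in rodents part of it is brown, so RNA of fat cells can be present in a whole kidney extract. In such bulk RNA, fewer cells of a type and less RNA per cell cannot be told apart.

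Promoters are shown for 3 members that differed widely between kidneys of one rat, because their changes from left to right were alike across rats. Each run is 300 bases of RefSeq sequence on build GRCr8, from 250 bases before the annotated start to 50 after it, read 5′ to 3′ on the gene's strand. The RefSeq promoter table held Ucp1, Cfd, Sncg, Lep and Adipoq, and had no entry for Fabp4, Lpl and Lipe. Capitals mark matches to the TATA box TATAAA, the CCAAT box, AGGTCA (a nuclear receptor half-site), AGAACA (a glucocorticoid receptor half-site) and TGACG (a core of the cyclic AMP response element), each searched on both strands. The array annotation names no build, so these coordinates are those of the RefSeq table alone.
Ucp1, chr19:41721372-41721671, minus strand: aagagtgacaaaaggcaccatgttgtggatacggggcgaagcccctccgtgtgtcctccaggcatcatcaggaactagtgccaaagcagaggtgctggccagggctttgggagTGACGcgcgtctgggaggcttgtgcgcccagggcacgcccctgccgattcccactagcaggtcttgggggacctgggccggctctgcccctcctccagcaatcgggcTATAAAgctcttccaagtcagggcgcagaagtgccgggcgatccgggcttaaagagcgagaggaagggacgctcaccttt
Cfd, chr7:10465447-10465746, minus strand: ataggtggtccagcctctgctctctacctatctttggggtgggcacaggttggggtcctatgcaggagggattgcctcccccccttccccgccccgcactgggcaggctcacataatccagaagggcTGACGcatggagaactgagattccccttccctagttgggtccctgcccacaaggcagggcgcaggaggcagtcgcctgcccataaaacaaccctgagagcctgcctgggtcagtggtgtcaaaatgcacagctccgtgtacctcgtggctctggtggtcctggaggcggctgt
Sncg, chr16:9711287-9711586, minus strand: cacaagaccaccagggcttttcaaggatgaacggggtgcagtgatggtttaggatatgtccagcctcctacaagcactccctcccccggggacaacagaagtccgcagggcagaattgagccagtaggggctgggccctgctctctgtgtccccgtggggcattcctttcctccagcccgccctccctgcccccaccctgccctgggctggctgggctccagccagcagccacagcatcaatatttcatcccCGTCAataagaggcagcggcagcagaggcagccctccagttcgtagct
In the Ucp1 promoter TATAAA began at position -30 from the start and TGACG at -137. The Cfd promoter held TGACG at -123, and the Sncg promoter held its reverse complement CGTCA at 2. Over 33469 RefSeq promoters of this length, 21.2% held TGACG or its complement, 14.2% TATAAA, 37.5% CCAAT, 16.2% AGGTCA and 20.7% AGAACA. The Lep and Adipoq promoters, not printed, held matches to CCAAT and none to TGACG, so TGACG was in 3 of the 5 promoters at hand. A match is a description and says nothing of binding.

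Kidney markers were high on all arrays. Signals of 9 proximal tubule genes summed to between 14712 and 20514 per kidney, and Slc34a1, the phosphate transporter of that segment, lay between 4343 and 6318. Median signals of the 16 arrays ran from 76.04 to 82.1. The first principal component held 45.7% of the variance and set rats 1 to 4 apart from rats 5 to 8. On the second (11.8%) the ACTH right kidneys lay apart, rat 1 at 0.75 and rat 5 at 0.45, with all other kidneys between -0.24 and 0.10; its part in the fat marker values was not tested. Each of these sets holds 1 ACTH rat, 1 DEX rat and 2 saline rats.

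Ucp1, the uncoupling protein of brown fat, differed most of the 7 genes among left kidneys. In the 8 left kidneys its signal was 62.7 at the lowest, 161 at the median and 788 at the highest. The left kidneys of rats 7, 1, 6 and 3 held 788, 501, 255 and 253, and those of the other 4 rats lay between 62.7 and 69.6. Among right kidneys the ACTH rats held 1119 (rat 1) and 106 (rat 5), the DEX rats 53.0 (rat 3) and 98.2 (rat 7), and the saline rats 142, 44.6, 76.9 and 94.3 (rats 2, 4, 6 and 8). Rat 1 was thus above every other right kidney, while rat 5 lay within the range of the saline rats. The second Ucp1 probe set followed the first over left kidneys with a Pearson r of 0.99 (n = 8).

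Fabp4, a fatty acid carrier of the fat cell cytoplasm, had left kidney signals of 54.5 at the lowest, 115 at the median and 263 at the highest. Its left signals in rats 7, 1, 3 and 6 were 263, 213, 194 and 157, and no other left kidney exceeded 72.1. Right kidneys of the ACTH rats held 1284 (rat 1) and 100.3 (rat 5), those of the DEX rats 56.4 and 72.8, and those of the saline rats 85.8, 60.9, 55.5 and 77.8. Both ACTH right kidneys were above all DEX and saline right kidneys.

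Cfd encodes complement factor D, or adipsin, a protease secreted by fat cells. Its left kidney signals were 58.2 at the lowest, 98.0 at the median and 309 at the highest. Right kidneys of the ACTH rats held 542 and 90.7, those of the DEX rats 48.7 and 71.2, and those of the saline rats 100.5, 48.7, 64.3 and 101.6. Rat 5 lay between the saline rats.

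Sncg, gamma-synuclein, is expressed in white fat cells and in peripheral neurons. Its left kidney signals were 161 at the lowest, 168 at the median and 337 at the highest, the last in rat 7. Right kidneys of the ACTH rats held 349 and 214, those of the DEX rats 138 and 179, and those of the saline rats 177, 143, 159.6 and 179. Both ACTH right kidneys were above all 6 other right kidneys.

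Lipe encodes hormone-sensitive lipase, which splits stored triglyceride. Lpl encodes lipoprotein lipase, which splits triglyceride carried in the blood and is made by muscle and other tissues too. Lipe signals were 209.7 at the lowest, 295 at the median and 415 at the highest over left kidneys. Lipe in the ACTH right kidneys was 974 and 252, in the DEX right kidneys 228 and 212, and in the saline right kidneys 259, 221, 232 and 259. Rat 1 stood apart again, and rat 5 lay within the saline range. For Lpl, left kidneys ran from 255 through a median of 330.3 to 442. Lpl in the ACTH right kidneys was 749 and 305, in the DEX right kidneys 381 and 269.5, and in the saline right kidneys 392.2, 406, 285 and 227, so rat 5 and both DEX rats overlapped the saline rats.

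Lep encodes leptin, the satiety hormone of white fat. Its brightest probe set gave 321 at the lowest, 561 at the median and 839 at the highest over left kidneys. The left kidneys of rats 1 to 4 held 683 to 839 and those of rats 5 to 8 held 321 to 440, without overlap. Of all tested probe sets, 35.8% also did not overlap between these sets. The other two Lep probe sets lay between 58.4 and 97.0 in left kidneys and did not follow the first, with r of -0.69 and 0.31 (n = 8). Lep values therefore differ with the probe set, and no level of leptin is drawn from them.

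**Figure D1:**
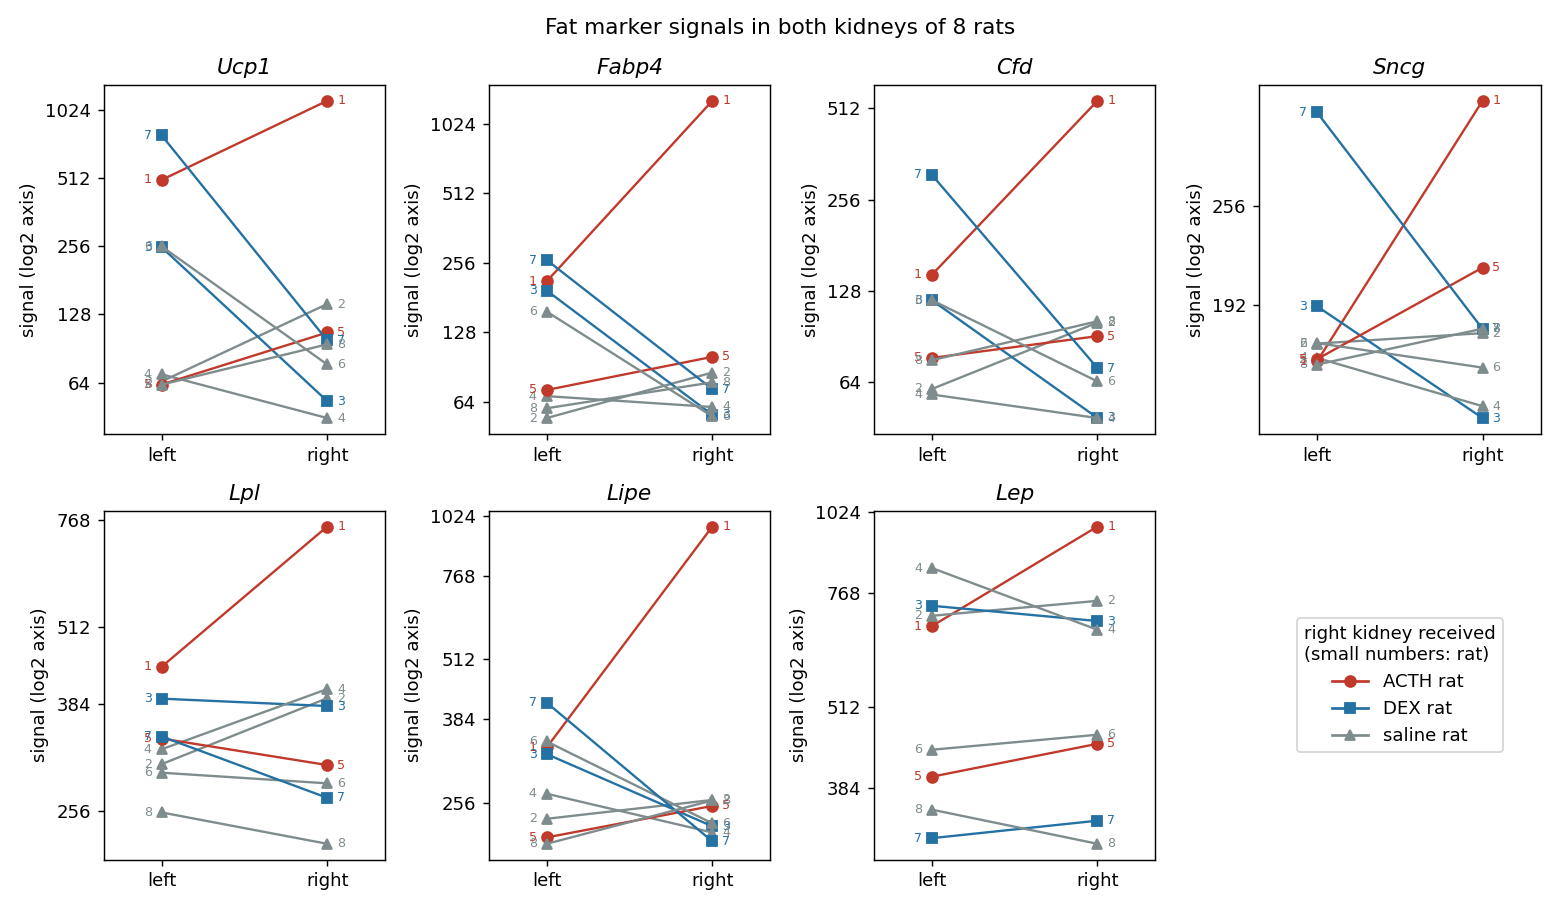
Signal of the 7 measured fat markers (vertical axes, log2 scale, 1 probe set per gene) in the left and right kidney of each rat, with a line joining kidneys of one rat. The right kidney of rat 1 is the highest of all right kidneys for each gene, and the left kidneys of rats 1, 3, 6 and 7 are the highest left kidneys for Ucp1, Fabp4, Cfd and Lipe.

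In the brightest probe set of each gene, mean signals had the same order in all 7 genes. Right kidneys given ACTH came first, then left kidneys, then right kidneys given saline, then right kidneys given DEX. For Ucp1 these means were 613 ± 716 (SD, n = 2), 257 ± 264 (SD, n = 8), 89.4 ± 40.6 (SD, n = 4) and 75.6 ± 32.0 (SD, n = 2). Ranges of neighbouring groups in that order overlapped for every gene. The dimmer Lpl and Lep probe sets did not keep the order. In the second brightest Lpl probe set the means were 460 with ACTH, 359 with DEX, 324 with saline and 297 in left kidneys.

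Some of the members were among the most variable probe sets in the untreated left kidneys. Left values enter the changes and the shared pattern on which the genes were selected, so their ranks are a description only. On the scale of log2(signal + 16), used for all changes and spreads here, Ucp1 had an SD of 1.36 over the 8 left kidneys, rank 5 of the 5244 tested, and its second probe set ranked 8. Fabp4 (SD 0.81) ranked 32 and Cfd (SD 0.71) ranked 52. Lep (0.53), Sncg (0.34) and Lipe (0.34) ranked 185, 791 and 793, and Lpl (0.23) ranked 1973. The median SD of all tested probe sets was 0.20. Between its lowest and highest left kidney the Ucp1 signal differed 12.6-fold.

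In their brightest probe sets, Ucp1, Fabp4, Cfd and Lipe were high in the same left kidneys. By the same choice, Sncg, Lpl and Lep followed them less closely or not at all. Over all 21 pairs of genes the median Pearson r was 0.61, from -0.45 to 0.98 (n = 8 rats; median Spearman rho 0.60). Among Ucp1, Fabp4, Cfd, Sncg and Lipe the 10 pairs ran from 0.61 to 0.98 with a median of 0.88. The highest r was that of Ucp1 with Fabp4, 0.98 (rho 0.86), and it was 0.98 without rats 1 and 7, the farthest from the Ucp1 median. Pairs with Sncg moved more: Cfd with Sncg had 0.84, and 0.25 without rats 4 and 7, Sncg with Lipe had 0.68, and 0.34 without rats 3 and 7, and Ucp1 with Sncg had 0.67, and 0.33 at the lowest with 1 rat left out. Lpl had 0.58 with Ucp1, 0.39 with Cfd and 0.11 with Sncg. Pairs with Lep ran from -0.45 to 0.45. For Lipe and Lpl the pattern differed with the probe set. The dimmer Lipe probe set was highest in left kidneys of rats 7, 6, 8 and 5, with r of 0.57 to the brighter one. The second brightest Lpl probe set had a left r of 0.94 with the mean of the standardised members, against 0.70 for the brightest. That mean was built from the brightest probe sets. These r values come from genes measured on the same arrays, so they share RNA and array, and the genes were chosen for moving together.

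In right kidneys the coupling was lower without rat 1. The median r over the 21 pairs was 0.91, and without rat 1 it was 0.52. Among Ucp1, Fabp4, Cfd, Sncg and Lipe the median was 0.97. It was 0.77 (0.50 to 0.96) without the 2 rats farthest from the median of each pair's first gene, in that order. Ucp1 with Lipe had an r of 0.96 over 8 right kidneys and 0.51 without rats 1 and 4. Ucp1 with Cfd had 0.99, and 0.87 without those rats.

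Left and right values of one rat followed each other little for Ucp1, Fabp4, Cfd, Sncg and Lipe. The genes were selected on right minus left changes in ACTH and DEX rats, so genes with unlike sides were favoured. Right kidneys also received different agents. The r values here are therefore descriptions, and how far the sides of an untreated rat agree was not tested. Between left and right kidneys of one rat r was 0.38 for Ucp1, 0.30 for Fabp4, 0.15 for Cfd, -0.15 for Sncg and 0.14 for Lipe (n = 8). For Ucp1 it was -0.44 without rats 1 and 7. Lep (0.90) and Lpl (0.81) were more alike on both sides; Lpl was at 0.18 without rats 1 and 8, and Lep follows the sets of rats described above.

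**Figure D2:**
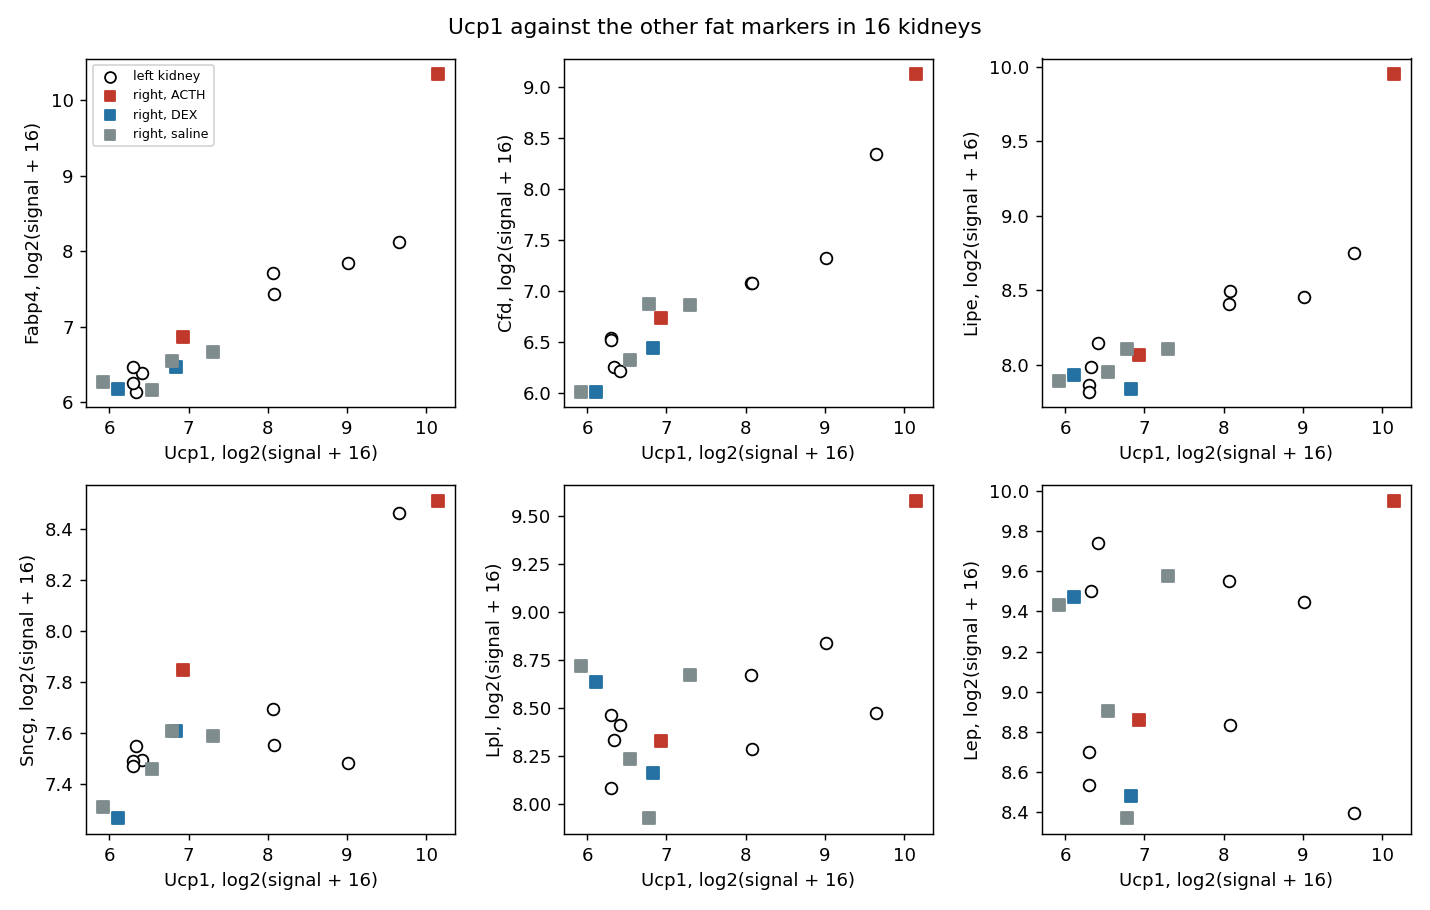
Ucp1 (horizontal axes) against each other fat marker (vertical axes), all as log2(signal + 16), in 8 left kidneys (open circles) and 8 right kidneys (squares coloured by agent). Fabp4, Cfd and Lipe climb with Ucp1 among left kidneys, the ACTH right kidney at the top right of each panel is rat 1, and Lep shows no such slope.

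The change from left to right kidney within a rat was then compared between agents. Ucp1 changed by 1.13 and 0.64 in ACTH rats 1 and 5, by -1.96 (rat 3) and -2.81 (rat 7) with DEX, and by 0.97, -0.50, -1.55 and 0.49 in saline rats 2, 4, 6 and 8. The fall in saline rat 6 was nearly as large as that in DEX rat 3, and the rise in saline rat 2 lay between the ACTH rats. Fabp4 changed by 2.51 and 0.40 with ACTH, by -1.54 and -1.65 with DEX, and by 0.53, -0.12, -1.28 and 0.30 with saline. Cfd changed by 1.80 and 0.20 with ACTH, by -1.06 and -1.90 with DEX, and by 0.60, -0.20, -0.75 and 0.36 with saline. In these genes both DEX rats lay below all saline rats, and rat 5 lay within the saline rats.

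Sncg changed by 1.03 and 0.36 with ACTH, by -0.43 and -0.86 with DEX, and by 0.04, -0.18, -0.09 and 0.14 with saline. Sncg was the gene in which the ACTH rats lay above, and the DEX rats below, all saline rats. Lipe changed by 1.50 and 0.21 with ACTH, by -0.48 and -0.92 with DEX and by 0.12, -0.25, -0.54 and 0.28 with saline. Lpl (0.74 and -0.14 with ACTH, -0.04 and -0.32 with DEX) and Lep (0.50 and 0.16, -0.08 and 0.09) changed less.

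**Figure D3:**
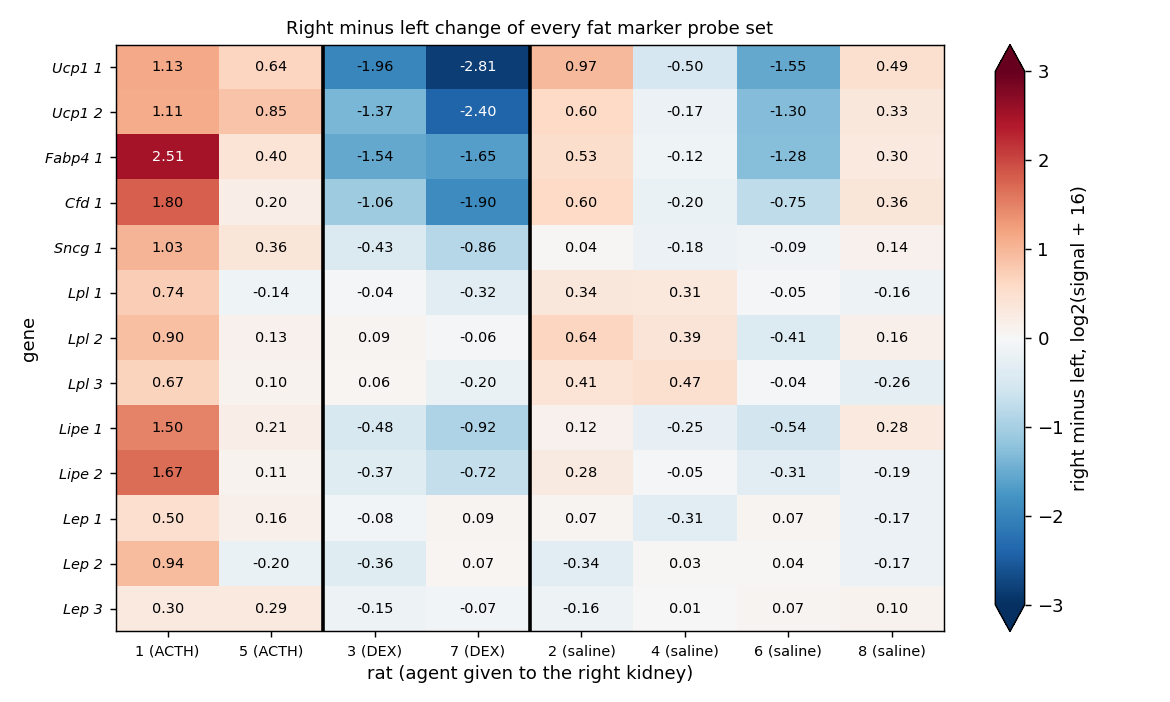
Right minus left change, in log2(signal + 16), of all 13 fat marker probe sets (rows; the number after a gene counts its probe sets by brightness) in each rat (columns, ordered by agent). Rat 1 is above 0 in every row, and saline rat 6 falls with the DEX rats in both Ucp1 rows.

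Relative to saline rats, the ACTH effect (the change of ACTH rats minus that of saline rats, with the standard error of a limma fit) was 1.60 ± 0.52 for Fabp4, 1.03 ± 0.52 for Ucp1, 1.00 ± 0.43 for Cfd, 0.95 ± 0.32 for Lipe, 0.72 ± 0.21 for Sncg, 0.41 ± 0.18 for Lep and 0.19 ± 0.24 for Lpl (n = 2 and 4 rats). The median of the 7 was 0.95, with 7 of 7 above 0, beside -0.00033 over all tested probe sets, of which 49.9% were above 0. Both ACTH rats lay above all saline rats in 2 of 7 genes, Lep and Sncg, beside 7.82% of all tested probe sets. None of the 7 was among the 26 probe sets (0.496% of 5244) past an adjusted p of 0.05 by limma; at an unadjusted p under 0.05 the count over all probe sets was 495 (9.44%). Without rat 1 the median effect was 0.30 and that of Lpl was -0.25. Without rat 5, when rat 1 alone stands for ACTH and the other rats supply the spread, it was 1.28.

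The DEX effect was -2.24 ± 0.52 for Ucp1, -1.48 ± 0.43 for Cfd, -1.45 ± 0.52 for Fabp4, -0.62 ± 0.21 for Sncg, -0.60 ± 0.32 for Lipe, -0.29 ± 0.24 for Lpl and 0.09 ± 0.18 for Lep. The median was -0.62 with 6 of 7 below 0, beside -0.0030 over all tested probe sets, of which 50.5% were below 0. Both DEX rats lay below all saline rats in 4 of 7 genes, Ucp1, Fabp4, Cfd and Sncg, beside 6.33% of all tested probe sets. No probe set passed the adjusted threshold by limma, and 154 (2.94%) had an unadjusted p under 0.05.

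The DEX values rested on the left kidneys. Compared over right kidneys alone, the median DEX effect was -0.092, with -0.16 for Ucp1 and -0.087 for Fabp4, whereas the ACTH median was 1.00. Left kidneys of the DEX rats had Ucp1 signals of 253 and 788, against 64.7, 69.6, 255 and 62.7 in the saline rats.

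Between the hormones, the difference of effects was 3.27 ± 0.60 for Ucp1, 3.05 ± 0.60 for Fabp4, 2.48 ± 0.49 for Cfd, 1.55 ± 0.37 for Lipe, 1.34 ± 0.24 for Sncg, 0.48 ± 0.28 for Lpl and 0.33 ± 0.21 for Lep. Ucp1, Fabp4, Cfd, Lipe and Sncg went up in both ACTH rats and down in both DEX rats, as did 5.66% of all tested probe sets. Ucp1, Fabp4, Cfd and Sncg were among the 30 probe sets (0.572%) past the limma threshold; as this contrast helped to choose the members, nothing is read from that count. The count of members was 0 without rat 1, without rat 3, without rat 4 or without rat 7, and 2 without rat 8.

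Right against left in the 4 saline rats asks whether the sides differ without a hormone; these arrays also enter the changes above. Its median was 0.013 over all tested probe sets, of which 55.8% were above 0. Over the 7 genes it was -0.08 (2 above 0), from -0.15 ± 0.30 for Ucp1 to 0.11 ± 0.14 for Lpl. The sign of the median was not stable: it was 0.17 without rat 6 and -0.17 without rat 2, and 0.20 within rats 1 to 4 against -0.13 within rats 5 to 8. None of the 7 passed limma's adjusted or unadjusted threshold, beside 0 of all 5244 adjusted and 196 (3.74%) unadjusted.

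Left kidneys of the 4 hormone rats against those of the 4 saline rats ask whether untreated kidneys already differed. These kidneys are part of the changes, and of the shared pattern, on which the genes were selected, so no count of members is read from this contrast. The left difference was 1.48 ± 0.64 for Ucp1, 0.98 ± 0.37 for Fabp4, 0.80 ± 0.31 for Cfd and 0.33 ± 0.10 for Lpl. It was 0.27 ± 0.18 for Sncg, 0.26 ± 0.20 for Lipe and -0.13 ± 0.11 for Lep. Each of these genes had an adjusted p of 0.999 by limma. Over all tested probe sets 0 passed after adjustment and 119 (2.27%) had an unadjusted p under 0.05. The brightest Lpl probe set was higher in all 4 hormone rats than in all 4 saline rats, as were 0.267% of all probe sets. In the dimmer Lpl probe sets rat 5 was not above all saline rats, and in the dimmest neither was rat 3.

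Other fat genes were taken from lists chosen with earlier results of these data known. Of 28 brown fat and thermogenesis genes, 13 were on the array and 11 past the filter, and 1 of the 11 passed the limma threshold, in ACTH minus DEX. That gene was Cpt1b, which carries fatty acids into mitochondria of muscle and brown fat, at 0.99 with an adjusted p of 0.0489 in its brighter probe set; the other Cpt1b probe set had 1.42 with an adjusted p of 0.0847 by limma. The brighter one passed in 3 of 15 alternative settings, where its adjusted p ran from 0.00858 to 1.00, and leaving out any rat but rat 5 lost the call. Median effects of the 11 were 0.19 for ACTH (9 above 0) and -0.24 for DEX (2 above 0). Of all tested probe sets, 49.9% were above 0 for ACTH and 49.5% for DEX. Cidea, a lipid droplet protein of brown fat, had a difference of 2.81 between hormones with an adjusted p of 0.0503, and Cox8b, a cytochrome oxidase subunit of brown fat and muscle, had 2.44 with 0.0774. Values for the brighter Slc27a2, Fabp3, Ucp2 and Cox6a2 ran from -0.17 to 0.43, none past the threshold.

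Cidea followed Ucp1 from kidney to kidney. In left kidneys of rats 7, 6, 1 and 3 its signal was 330, 145, 132 and 108, and no other left kidney was above 46.0. In right kidneys it was 775 in rat 1 and at most 84.9 elsewhere. The brighter Cox8b probe set was 480 in the left kidney of rat 7 and 860.1 in the right kidney of rat 1.

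Of 35 white fat and adipocyte genes, 25 were on the array and 21 past the filter, and none passed the limma threshold in any comparison. Their median ACTH effect was 0.44 (18 of 21 above 0) and their median DEX effect was -0.14 (4 above 0). The shares of all tested probe sets above 0 were 49.9% and 49.5%. The log2 sum of the 25 had r of 0.16 on the left and 0.53 on the right with the mean of the standardised members. Which cells the transcripts of this list came from was not tested. Agt, angiotensinogen, went from 226 on the left to 671 on the right in rat 1 and changed by 0.06 to 0.37 in the other 7 rats. Gpd1, which makes glycerol phosphate for triglyceride, changed by 1.64 in rat 1, and Pck1, Aqp7, Mgll and Dgat1 by 0.77, 0.17, -0.30 and 0.63 there. Slc2a4, the insulin-responsive glucose transporter, was picked after its values were seen: it went from 121 to 496 in rat 1, and its left signals ran from 104.6 to 144 with the lowest in rat 7. Car3, a carbonic anhydrase of fat and muscle, was also picked after its values were seen. Its left signal was highest, not lowest, in rat 7, at 296. Car3 changed by -1.49 in rat 7, -0.84 in rat 6 and -0.15 in rat 3. In rat 1 it rose, as Slc2a4 did, by 1.60.

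Lipogenesis genes, which build fatty acids from sugar, had a median ACTH effect of 0.61 over 7 genes and none passed the threshold. Fasn, fatty acid synthase, was 282 on the left and 2339 on the right in rat 1. Scd, a fatty acid desaturase chosen after its values were seen, had the largest SD of all probe sets over left kidneys, with 2347 in rat 6 and 1190 in rat 1 against 45.0 in rat 8.

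**Figure D4:**
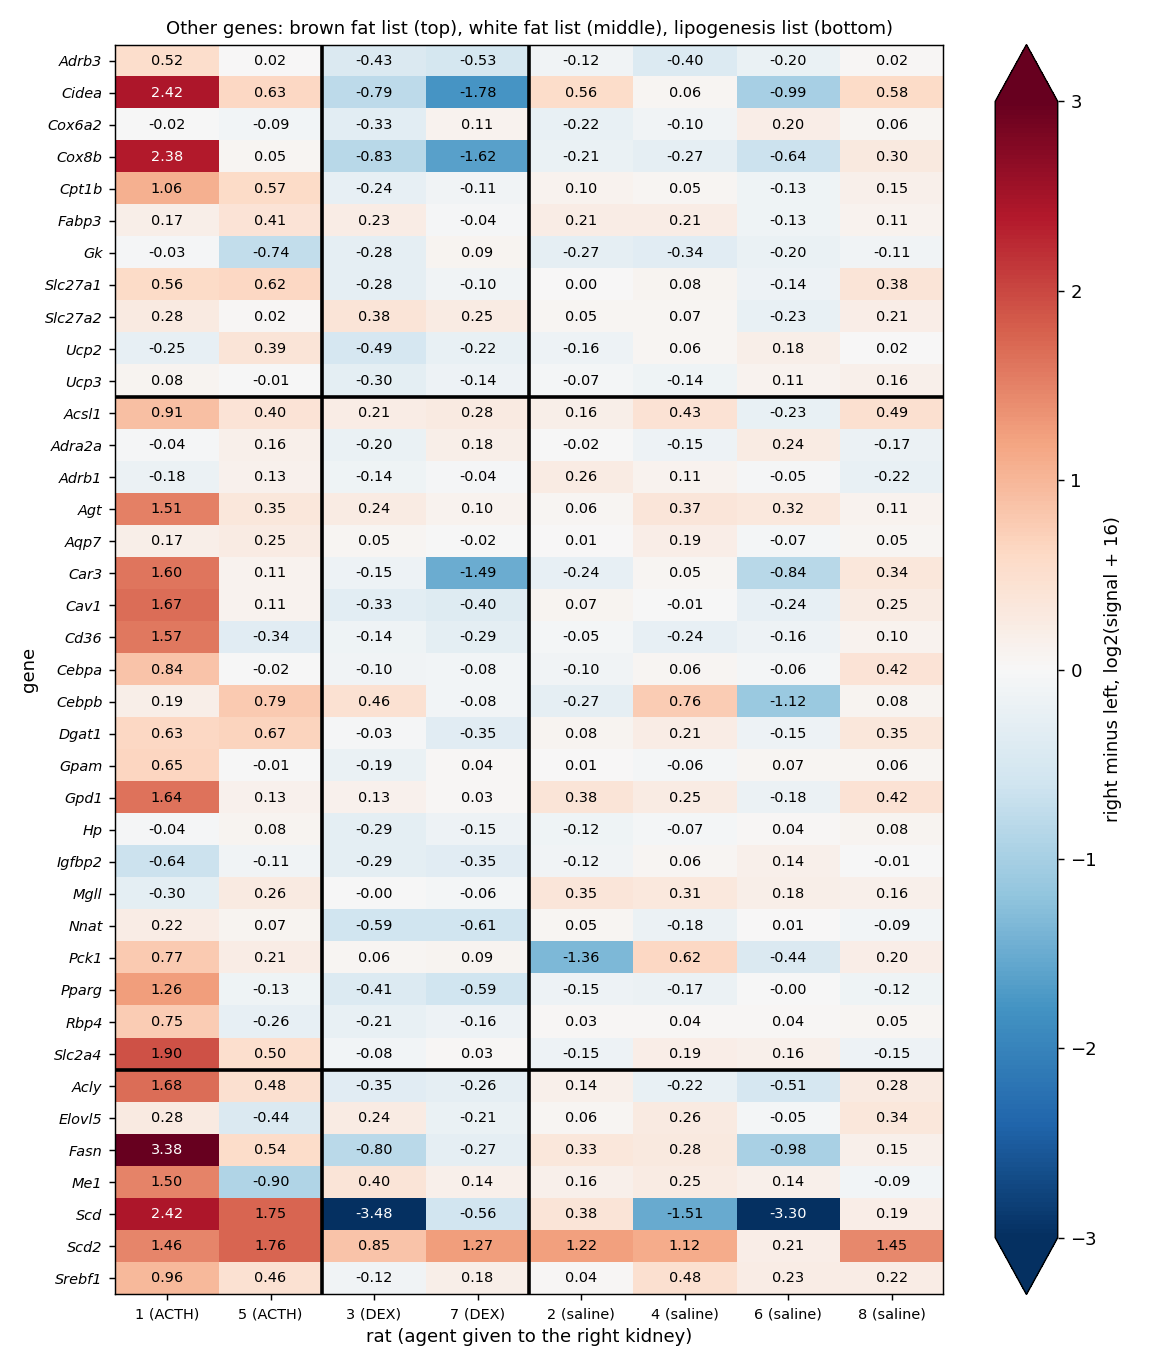
Right minus left change, in log2(signal + 16), of the other brown fat, white fat and lipogenesis genes past the filter in each rat; colours saturate at 3 and the printed values do not. Most genes of all 3 lists are above 0 in ACTH rats 1 and 5 and also in saline rats 4 and 8. In rats 3, 6 and 7 Cidea and Cox8b fall while Slc2a4 and Agt stay within 0.32 of 0.

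Markers of other cell types were summed in each kidney. Erythrocyte genes (3 of 3 past the filter: Hbb, Alas2 and Slc4a1) summed to 4829, 5792, 5843 and 4211 in left kidneys of rats 7, 1, 6 and 3, and to between 1821 and 3284 in the other 4 left kidneys. The 4 left kidneys with the highest Ucp1 thus also had the highest erythrocyte sums. In right kidneys these sums were 4906 and 5285 with ACTH, 3092 and 3366 with DEX, and 2695 to 4238 with saline. The right kidney of rat 1 had the lowest proximal tubule sum, 14712, beside 17159 to 19585 in left kidneys and 18084 to 20514 in saline right kidneys. It also had the lowest leukocyte sum of all 16 kidneys, 1385 over 9 genes, with 5 past the filter. The part of these cell types in the fat marker values was not tested.

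Smooth muscle genes (6 of 7 past the filter) summed to 1461 and 1762 in the ACTH right kidneys, beside 1096 to 1480 in left kidneys and 1053 to 1251 in saline right kidneys; their part was not tested either.

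Nerve, adrenal and skeletal muscle markers had narrower ranges. Sympathetic nerve and adrenal medulla genes (5 of 12 past the filter) summed to between 659 and 739 over all kidneys. Adrenal cortex genes (4 of 6) summed to between 639 and 774, and Star, the cholesterol carrier of steroid cells, was under the filter at 29.2 to 48.5. Skeletal muscle genes (1 of 7) summed to between 242 and 303, and Acta1 was at 25.4 to 38.2. Among other kidney lists, Kap, an androgen-regulated proximal tubule gene, had an ACTH effect of -0.78 with an adjusted p of 0.0180 by limma, which passed in 10 of 15 alternatives, from 0.0183 to 1.00.

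Genes with the most similar pattern were ranked by the smaller of their Pearson r with the mean of the standardised members in 8 left and in 8 right kidneys. Cpt1b (0.92, in its dimmer probe set), Cidea (0.90), Plaat3 (0.88), a phospholipase of fat cells, and Adrb3 (0.85), the beta-3 adrenergic receptor of fat cells, led. Gnas (0.81), Ndrg2 (0.77), Tkt (0.74), Cox8b (0.73), Myh11 (0.73), the smooth muscle myosin, and Fasn (0.72) followed. Each gene here and below is given by its most extreme probe set, so the r need not hold for its others. Gnas had 3 other probe sets, Myh11 had 2, and Plaat3, Tkt, Cox8b and Fasn had 1 each. Most opposite were Slc34a1, with -0.80 on the left and -0.90 on the right, Ptk2b (-0.81 and -0.83) and Mogs (-0.73 and -0.76). Slc34a1 had 4 other probe sets. These r are over arrays that hold the members too, and rat 1 is 1 of the 8 right kidneys behind each.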

How the data were processed

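Total RNA from 16 kidneys of 8 rats was measured on 1-colour arrays, 1 array per kidney. The values deposited by the authors are signal intensities on a linear scale for 8799 probe sets. Software: not given in the sources used here; normalization likewise. The 59 control probe sets were removed, and the 40% of the remaining 8740 with the lowest mean log2 signal were left out, leaving 5244. Symbols came from the platform annotation (7006 probe sets with 1 symbol, 308 with several, 1426 with none). Deposited values were used without further scaling. The number of arrays, not a read depth, limits the precision.

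Log2(signal + 16) was fitted with limma 3.58.1 in R 4.3.3, with terms for rat, right kidney and each hormone in the right kidney; left kidneys were fitted separately with a term for rats 1 to 4 or 5 to 8. All tests are two-sided, with Benjamini-Hochberg adjustment over the 5244 probe sets and a threshold of 0.05. The fit was tested on simulated data. Rat numbers pair the kidneys because both come from one animal. Deviations of the 2 kidneys from means over all 8 rats correlated at 0.46 to 0.73. These means ignore the split of rats 1 to 4 from rats 5 to 8. Deviations from the means of each set of 4 rats correlated at 0.12 to 0.51. "Without" a rat leaves out both its kidneys. Members and gene lists were chosen with earlier results of these data known. Genes named were the members, the 10 most and 3 least alike in pattern, the 6 brightest of the brown and of the white fat list, and list genes past the threshold; others are said to be chosen after their values were seen. Alternatives were pseudocounts of 1 and 64, no filter, quantile normalization, no variance trend, no rat term, right kidneys only, each set of rats, and each rat left out; leaving Lep out was added after the data were seen.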

Additional observations from a re-analysis of the deposited data

Results flagged for a closer look

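The left kidney of rat 7 stood apart from the other 7 left kidneys for Sncg: its signal was 337, and its gap to the next kidney was 0.77 of the whole range, above Dixon's critical value of 0.526 for 8 samples. It was the 1 gap above the critical value in 26 groups looked at, and chance flags about 1 in 20 groups.

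In 5 members every ACTH rat moved up and every DEX rat moved down, as in 5.66% of all tested probe sets. The ACTH mean change minus the DEX mean change was 3.27 for Ucp1, 3.05 for Fabp4, 2.48 for Cfd, 1.55 for Lipe and 1.34 for Sncg, on 2 rats each. The genes were chosen with this contrast known, so the differences are descriptions.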

How the results depend on the processing

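Median effects over the members kept their sign under every alternative tried for ACTH, DEX and their difference. The median ACTH effect of 0.95 was 0.33 within rats 5 to 8, and 0.30 to 1.28 over the rats left out. The median DEX effect of -0.62 was -0.092 over right kidneys only, and -0.83 to -0.41 over the rats left out. The median difference of 1.55 was 1.12 over right kidneys only, 2.01 without Lep and 1.97 within rats 1 to 4, and 1.00 to 2.19 over the rats left out. Single members changed sign 4 times, in 3 settings: for ACTH, Lpl was -0.25 without rat 1 and -0.03 within rats 5 to 8, and over right kidneys only the DEX effect was 0.0079 for Lpl and -0.092 for Lep.

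The count of 26 probe sets for ACTH was 12 after quantile normalization, 0 over right kidneys only, and 9 to 114 over the rats left out. The count of 30 for ACTH minus DEX was 0 over right kidneys only and 2 to 100 over the rats left out. With no replicate block, which ignores the pairing of kidneys, both counts were 0. The DEX count of 0 was 0 to 3 over the rats left out. The saline right over left count of 0 was 1 with a pseudocount of 1, with no filter, with quantile normalization and with no variance trend, and 0 to 1 over the rats left out. No member passed in that comparison. Median r without the 2 farthest rats was 0.42 in left kidneys and 0.50 in right kidneys; over the rats left out it was 0.54 to 0.66 and 0.52 to 0.93. The cause of these shifts was not tested. With 2 rats per hormone, 1 rat decides most values.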
